A study of Canis lupus familiaris with 29 samples.

Results

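In canine pheochromocytomas and paragangliomas (PPGLs), 89 genes stood wholly apart from the normal adrenal medulla (NAM). For each of these genes the values of all 19 PPGLs lay above, or all below, the values of all 10 NAMs. The members were chosen by exactly these values, in CPM (the count of a gene x 1e6 over the summed counts of its sample), with a mean of at least 1 CPM in PPGLs or in NAMs. Of the 30951 genes in the count table, 14271 reached that mean, and 32 of them (0.224%) were higher in every PPGL and 57 (0.399%) lower in every PPGL. Because PPGLs and NAMs were the contrast that chose the genes, no test of that contrast is given for them, and nothing is read from these shares.

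Bulk RNA of tumor tissue from 19 dogs with a naturally occurring PPGL was sequenced beside medulla dissected from the adrenals of 10 healthy dogs. Of these tumors, 7 are labelled PPGL group 1 and 12 PPGL group 2, a division the submitters drew from a principal component analysis of the same samples. Per the paper, PPGLs that stood out in such an analysis had been excluded beforehand. Whether the excluded PPGLs were apart from the NAMs in the members is not known here. The labels name no sequencing batch, treatment, sex or age, and healthy dogs gave all the NAMs and patients all the PPGLs, so the origin of the dogs and the tissue cannot be told apart. The counts on genes summed to between 19258054 and 35918182 per NAM and to between 18208718 and 31919833 per PPGL. A level of 3 counts, taken as the floor of a library, came to between 0.0835 and 0.156 CPM in NAMs and to between 0.0940 and 0.165 CPM in PPGLs, which covers counting error only.

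Chromaffin cells of the adrenal medulla descend from the neural crest, make catecholamines from tyrosine, and store them in granules together with chromogranins and neuropeptides that are released on nerve stimulation. PPGLs arise from these cells, or from their relatives in the paraganglia. The medulla lies inside the steroid-producing cortex, so that a dissected medulla can carry cortical cells, and a tumor brings its own vessels and connective tissue.

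The members covered a wide span. Among the 32 members higher in PPGLs, the log2 ratio of mean CPM (PPGL over NAM) went from 0.37 to 7.55 with a median of 2.09, and among the 57 lower members from -7.58 to -0.63 with a median of -2.51. The median over all 14271 genes was 0.20. A ratio above 3 was found for 7 of the higher members and a ratio below -3 for 22 of the lower members. The gap between the groups was taken as the lowest value of the higher group divided by the highest value of the lower group, with values under 3 counts set to 3 counts. It was at least 1.01 and at most 5.23 among the higher members (median 1.22), and at least 1.00 and at most 11.1 among the lower members (median 1.14). For part of the members the groups therefore stood apart by little. The gap was under 1.1 in 9 higher and 21 lower members, and over 2 in 4 higher and 10 lower members. The members higher in PPGLs had a median exon length of 2829 bases and the lower members one of 2203 bases, beside 2125 bases for all 14271 genes. Among the 19 PPGLs the coefficient of variation had a median of 0.478 for the higher members, 0.618 for the lower members and 0.476 for all 14271 genes. The rule used the same tumor values, and means close to 0 raise this measure.

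**Figure D1:**
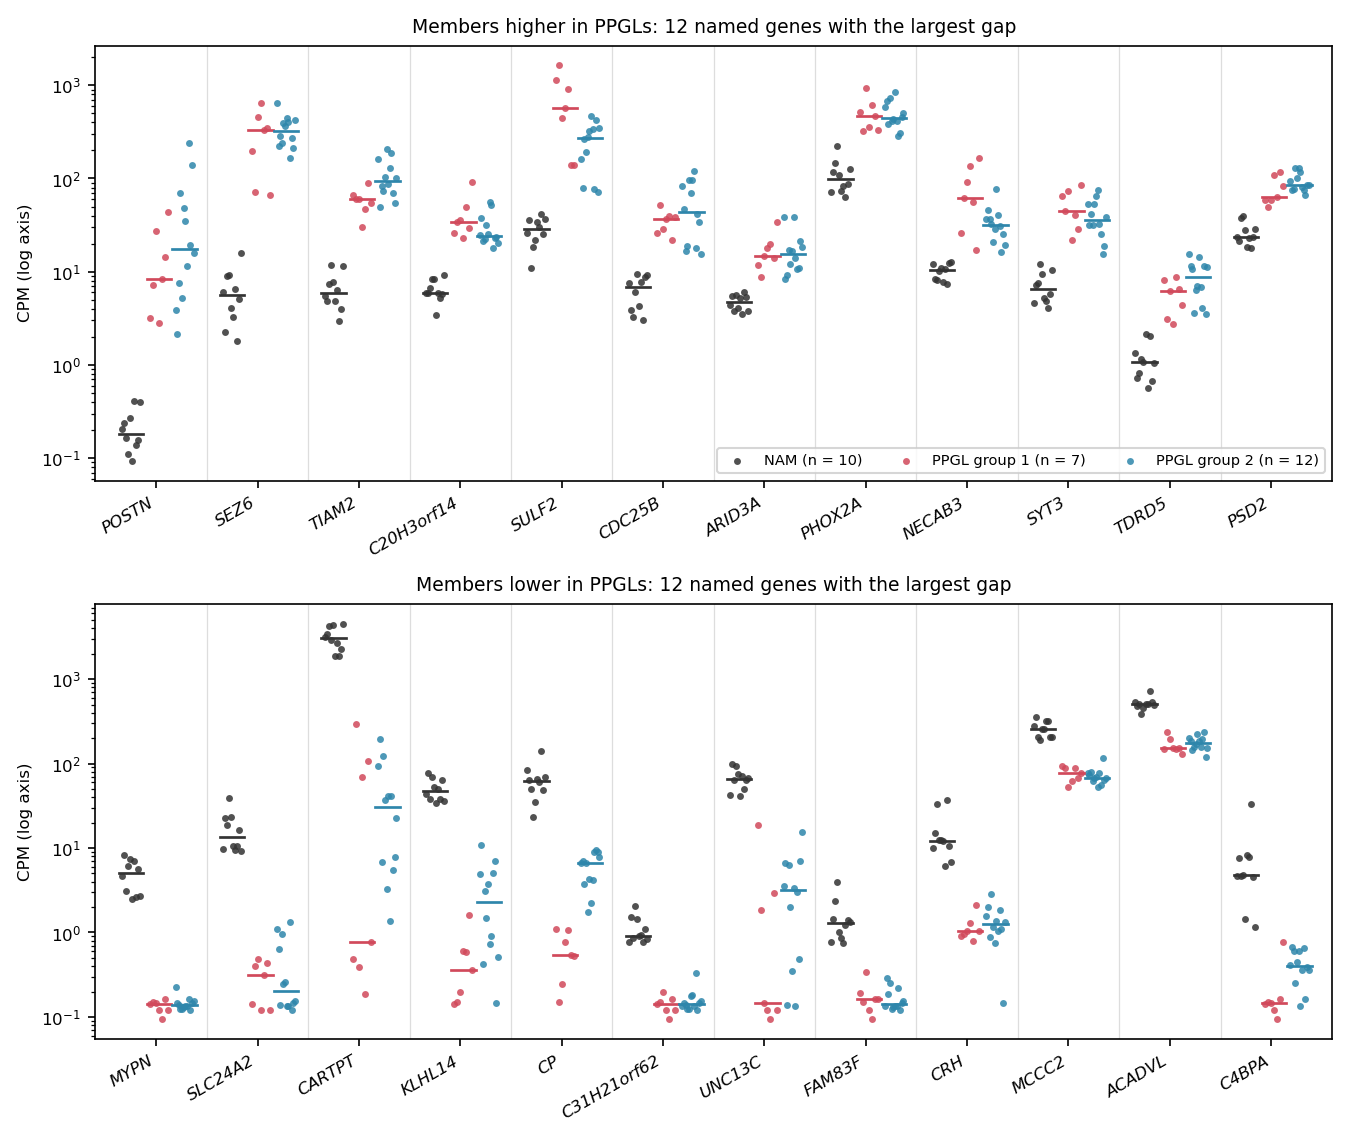
CPM on a log axis of the 12 higher and the 12 lower members with a gene name and the largest gap, 1 point per sample and a line at each group's median; values under 3 counts are drawn at 3 counts. POSTN had the largest gap of the higher members (5.23) and MYPN that of the lower ones (11.1).

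SEZ6 and PHOX2A were higher members with known roles in neurons and in sympathoadrenal cells. SEZ6 (ENSCAFG00000018854, CanFam3.1 chromosome 9, 43121017 to 43165762), a membrane protein of neurons that shapes dendrites and synapses, was at 1.83 CPM in the lowest NAM, 5.63 in the median NAM and 15.9 in the highest. In the PPGLs it was at 67.1 CPM in the lowest tumor, 332 in the median and 643 in the highest. The lowest tumor was thus 4.22 times the highest NAM, the mean was 326 ± 160.5 CPM in PPGLs (SD, n = 19) against 6.35 ± 4.23 in NAMs (SD, n = 10), and the tumors of both PPGL groups were high. PHOX2A (ENSCAFG00000005726, chromosome 21, 25892321 to 25900351), a homeobox transcription factor needed for the noradrenergic identity of sympathoadrenal cells, was at 62.9, 97.8 and 221 CPM in the lowest, median and highest NAM. The corresponding PPGL values were 284, 452 and 941 CPM. Every sample of both tissues thus carried PHOX2A at a clear level, and the mean of 505 ± 186 CPM in PPGLs (SD, n = 19) against 110.1 ± 47.7 in NAMs (SD, n = 10) gave a log2 ratio of 2.20. Per kilobase of exon, PHOX2A had the highest level of the higher members named here, with a mean of 210.1 CPM per kb in PPGLs, followed by SEZ6 with 109 and SULF2 with 108.

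TIAM2, PSD2, SYT3 and NECAB3 were further higher members with a large gap. TIAM2 (ENSCAFG00000000577, chromosome 1, 44870103 to 45002684), an exchange factor that activates the small GTPase Rac1, was at 2.97, 5.89 and 11.8 CPM in the lowest, median and highest NAM and at 30.1, 74.0 and 206 CPM in the PPGLs. Its groups stood apart by a gap of 2.55. Parts of its exons overlap those of TFB1M on the opposite strand, and although the libraries came from a stranded kit, whether the counting used the strand is not given in the sources used here, so some of its reads may belong to that gene. PSD2, an exchange factor for the small GTPase ARF6, was at 18.1, 23.7 and 39.8 CPM in NAMs and at 49.4, 82.6 and 130.2 CPM in PPGLs. SYT3, a synaptotagmin and calcium sensor of vesicle fusion, was at 4.11, 6.47 and 12.0 CPM in NAMs and at 15.3, 40.6 and 84.2 CPM in PPGLs. NECAB3, a neuronal calcium-binding protein, was at 7.44, 10.5 and 12.8 CPM in NAMs and at 16.3, 36.7 and 165 CPM in PPGLs. In each of these genes all tumors lay above all NAMs, and the tumors spread widely in NECAB3 and TIAM2.

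The chromaffin list held 19 genes of at least 1 CPM, with PHOX2A as its only member and PNMT, lower in PPGLs, as its only near miss, meaning a gene that would have joined the set had 1 sample been left out. Its median log2 ratio was 0.62, and 15 of the 19 means were higher in PPGLs. The list of sympathoadrenal and neural transcription factors held 26 genes with a median log2 ratio of 1.03 without PHOX2A, and 22 of the 26 had a higher mean in PPGLs. PHOX2A was again the only member, and GATA2 was a near miss. The chromaffin genes summed to between 26561 and 110165 CPM in NAMs (median 38709), to between 11980.3 and 183829 CPM in group 1 (median 55365) and to between 35050.6 and 165022 CPM in group 2 (median 83889). Their most abundant gene over all samples was CHGB, at a mean of 25806 CPM in NAMs and 30912 CPM in PPGLs, and 0 of the 19 genes were without a count in all samples of a tissue. PPGL group 1 replicate 7 had the lowest chromaffin sum of all samples, at 11980.3 CPM, and its neuropeptide list, which holds CHGB too, summed to 181 CPM against at least 17087 CPM in the NAMs.

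Extracellular matrix genes were a further part of the higher set. SULF2 (ENSCAFG00000010874, chromosome 24, 34732037 to 34828569), a secreted sulfatase that acts on heparan sulfate chains, was at 11.1, 28.4 and 41.5 CPM in the lowest, median and highest NAM. The PPGL values were 71.9, 324 and 1639 CPM, and the 4 highest tumors were all of group 1, at 567, 918, 1131 and 1639 CPM. POSTN, a secreted matrix protein of activated fibroblasts, was not above 0.410 CPM in any NAM and not below 2.14 CPM in any PPGL. Its PPGL median was 14.2 CPM, and its tumors went up to 242 CPM, so the highest and the lowest tumor differed far more than the highest NAM and the lowest tumor.

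All 35 genes of the fibroblast and extracellular matrix list reached 1 CPM. Their median log2 ratio was 1.80, or 1.79 without the members POSTN and SULF2, and 34 of the 35 had a higher mean in PPGLs. Per sample the list summed to between 1508 and 2690.0 CPM in NAMs (median 2032), to between 1759 and 6917 CPM in group 1 (median 4589) and to between 1768 and 45813 CPM in group 2 (median 3338). The 45813 CPM were those of PPGL group 2 replicate 11, and the tumor next in order had 11666 CPM. SPARC was the most abundant gene of the list over all samples, at 541 CPM in NAMs and 581 CPM in PPGLs on average, and 0 of the 35 genes were without a count in all samples of a tissue. In bulk tissue, fewer cells of a type and less RNA per cell cannot be told apart, and the part of fibroblast RNA in the levels of POSTN and SULF2 was not tested.

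Other higher members have roles in the cell cycle, at DNA or in germ cells, or a role not given here. CDC25B (ENSCAFG00000006175, chromosome 24, 17553316 to 17561759), a phosphatase that activates cyclin-dependent kinases at entry into mitosis, was at 3.06, 6.80 and 9.37 CPM in the lowest, median and highest NAM and at 15.5, 38.1 and 121 CPM in the PPGLs. Its highest tumors were of group 2. ARID3A, a DNA-binding protein with an AT-rich interaction domain, was at 3.50, 4.77 and 6.07 CPM in NAMs and at 8.43, 14.6 and 38.4 CPM in PPGLs. TDRD5, a tudor domain protein of germ cells, was at 0.559, 1.06 and 2.15 CPM in NAMs and at 2.72, 6.84 and 15.3 CPM in PPGLs. TDRD5 was thus detected in all NAMs at a low level, above the floor of 3 counts. C20H3orf14 was at 3.46, 5.92 and 9.13 CPM in NAMs and at 18.1, 25.9 and 91.2 CPM in PPGLs.

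The proliferation lists contributed no member. Over all 14271 genes 32 (0.224%) were higher members, so nothing is read from this absence. Of 48 mitosis genes 47 had a higher mean in PPGLs, with a median log2 ratio of 2.73, yet in each of them the values of PPGLs and NAMs overlapped, and KIF4A and ASPM were near misses. Of 35 genes of DNA replication and nucleotide synthesis 32 had a higher mean in PPGLs, with a median log2 ratio of 0.95 and CDC6 and MCM6 as near misses. The mitosis genes summed to between 205 and 432 CPM in NAMs, to between 289 and 5580.4 CPM in group 1 and to between 206 and 765 CPM in group 2. The 5580.4 CPM were those of PPGL group 1 replicate 7, and the tumor next in order had 1156 CPM.

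The remaining named higher members had small differences at high levels. SUPT4H1, a subunit of the elongation factor DSIF that works with RNA polymerase II, was at 33.0, 44.0 and 50.5 CPM in the lowest, median and highest NAM and at 56.5, 75.3 and 121 CPM in PPGLs. UBAC1, a subunit of a ubiquitin ligase complex, was at 71.1, 80.1 and 102 CPM in NAMs and at 116, 148 and 285 CPM in PPGLs. ZNF428 was at 35.3, 40.4 and 43.7 CPM in NAMs and at 44.0, 59.3 and 124 CPM in PPGLs. These genes were separated by gaps of 1.12, 1.14 and 1.01, and other scalings of the libraries ended the separation of each: SUPT4H1 with the cortex and mitochondrial genes left out of the sums, UBAC1 with TMM or DESeq2 scaling, and ZNF428 under each of the 3.

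Several lower members with a large gap were close to absent in the tumors. MYPN (ENSCAFG00000013541, chromosome 4, 19381416 to 19465995), which encodes myopalladin, a protein of the sarcomere of muscle, was at 2.52, 5.12 and 8.34 CPM in the lowest, median and highest NAM. In 14 of the 19 PPGLs it had no count, and 18 of them had at most 3 counts, with 0.227 CPM in the highest. At these depths MYPN was thus not detected in most tumors, while every NAM carried it, and its log2 ratio of -7.58 rests on very few tumor counts. SLC24A2, an exchanger of sodium, calcium and potassium, had no count in 8 tumors and went up to 1.32 CPM, against 9.33 CPM in the lowest NAM. C31H21orf62 had no count in 10 tumors and FAM83F in 6, and both were low in the NAMs too, at medians of 0.918 and 1.28 CPM. KLHL14 was at 34.4, 46.9 and 76.6 CPM in NAMs and at 0, 0.725 and 10.9 CPM in PPGLs.

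Lower members with a secretory or synaptic role include UNC13C, CRH and CARTPT. UNC13C (ENSCAFG00000015890, chromosome 30, 19518232 to 20095094), which primes synaptic vesicles for release, was at 41.3, 65.9 and 99.6 CPM in the lowest, median and highest NAM. In the PPGLs it was at 0, 2.02 and 18.7 CPM, and its log2 ratio was -4.14. CRH (ENSCAFG00000030126, chromosome 29, 15831944 to 15834384), the hypothalamic hormone that drives the release of corticotropin, was at 6.19, 12.2 and 36.7 CPM in NAMs. The PPGLs were at 0.148, 1.099 and 2.87 CPM, with 1 tumor at or under 3 counts. Both genes were low in nearly all tumors, and UNC13C went from no count in 2 tumors to 18.7 CPM in 1 tumor of group 1. CARTPT, the precursor of the peptide CART, had by far the highest level of the lower members named here per kilobase of exon, at a mean of 5987 CPM per kb in NAMs and 106 in PPGLs. It was at 0.188 CPM in 1 tumor of group 1 and at 298 CPM in another, while the lowest NAM was at 1859 CPM.

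The list of neuropeptides and peptide hormones had 26 genes of at least 1 CPM, and its median log2 ratio was 0.22, or 0.44 without CARTPT and CRH, so these members went against the middle of their list. Of 42 sodium, calcium and acid-sensing channels and exchangers, SLC24A2 alone was a member, and the median log2 ratio was 0.58.

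Genes of copper and iron handling, complement, gap junctions and lipoproteins followed. CP (ENSCAFG00000008324, chromosome 23, 43969435 to 44030369), which encodes the copper-binding ferroxidase ceruloplasmin, was at 23.6, 62.1 and 142 CPM in the lowest, median and highest NAM. In the PPGLs it was at 0.152, 3.73 and 9.40 CPM. The mean was 3.99 ± 3.36 CPM in PPGLs (SD, n = 19) and 64.3 ± 32.3 in NAMs (SD, n = 10), so the lowest NAM was 2.51 times the highest tumor. Some exon bases of CP are shared with HPS3 on the opposite strand, so, as with TIAM2, some of its reads may belong to the other gene. C4BPA, a chain of the complement inhibitor C4b-binding protein, was at 1.17, 4.73 and 32.8 CPM in NAMs and at 0, 0.360 and 0.768 CPM in PPGLs. GJA1, which encodes the gap junction protein connexin 43, was at 119.9, 337 and 650.3 CPM in NAMs and at 2.16, 19.5 and 110.2 CPM in PPGLs. The highest tumor, at 110.2 CPM, came close to the lowest NAM, and the separation of GJA1 was lost with TMM scaling and with the cortex and mitochondrial genes left out of the sums. APOB, the structural protein of lipoproteins that carry cholesterol, and the unnamed gene ENSCAFG00000007029 were lower as well. APOB had values of 40.8, 198 and 462 CPM in NAMs and of 0.408, 5.52 and 28.0 CPM in PPGLs, and ENSCAFG00000007029 of 5.11, 15.99 and 66.5 CPM in NAMs and of 0, 0.303 and 4.48 CPM in PPGLs.

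Mitochondrial breakdown of fatty acids and branched-chain amino acids was the list with the most members, 4 of 42, all lower. Over all 14271 genes, 57 (0.399%) were lower members. The lists differ in size and the members were chosen by these values, so nothing is read from this count. MCCC2 (ENSCAFG00000007887, chromosome 2, 54751698 to 54823273), a subunit of the carboxylase that acts in leucine breakdown, was at 192, 258 and 359 CPM in the lowest, median and highest NAM and at 53.0, 68.8 and 117 CPM in PPGLs. ACADVL (ENSCAFG00000016016, chromosome 5, 32186502 to 32327990), the dehydrogenase of very long-chain acyl-CoA, was at 389, 505 and 731 CPM in NAMs and at 119.8, 159 and 239.6 CPM in PPGLs. Both genes were abundant in all samples, although every tumor lay below every NAM. ACADS, the dehydrogenase for short chains, was at 66.7, 74.5 and 87.1 CPM in NAMs and at 19.1, 38.5 and 50.2 CPM in PPGLs. HADHA, the alpha subunit of the trifunctional protein of beta-oxidation, was at 256, 352 and 532 CPM in NAMs and at 89.4, 145 and 215 CPM in PPGLs. The differences were moderate, with log2 ratios of -1.83 for MCCC2, -1.57 for ACADVL, -1.22 for HADHA and -1.03 for ACADS. ACADVL shares exon bases with DLG4 and PLSCR3 on the opposite strand, so its values may include some of their reads.

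Most of the list had lower means in PPGLs. Its median log2 ratio was -0.82, and -0.72 without the members, 35 of the 42 genes had a lower mean in PPGLs, and HADH, EHHADH and ETFB were near misses. The list summed to between 4673 and 8585 CPM in NAMs (median 6883), to between 2663 and 3592 CPM in group 1 (median 3468) and to between 2697 and 4677 CPM in group 2 (median 3848). Its most abundant gene over all samples was CPT1A, at 509.9 CPM in NAMs and 251 CPM in PPGLs on average. NAM 8 had the highest sum both of this list and of 12 cortex genes among the NAMs (8585 and 62163 CPM). PPGL group 2 replicate 10 had the highest of both among the tumors (4677 and 33326 CPM). In group 1, replicate 5 had the highest list sum (3592 CPM) and the lowest cortex sum of all samples (103 CPM). The list medians of groups 1 and 2 were 3468 and 3848 CPM, while their cortex medians were 253 and 3720.2 CPM. The part of the cortex genes in the result was not tested. The neighboring lists had no member: 15 of 17 genes of the tricarboxylic acid cycle had a lower mean in PPGLs (median log2 ratio -0.45), as had 25 of 37 nuclear genes of the respiratory chain (median -0.12).

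Markers of the adrenal cortex were high in the NAMs and had lower means in PPGLs. Of 12 cortex genes 0 were members, 12 had a lower mean in PPGLs and 8 were near misses, namely MRAP, INHA, CYP11A1, CYP21A2, MC2R, STAR, FDX1 and SCARB1. Their median log2 ratio was -3.11. The 12 genes summed to between 14669 and 62163 CPM in NAMs (median 37491), to between 103 and 1285 CPM in group 1 (median 253) and to between 241 and 33326 CPM in group 2 (median 3720.2). PPGL group 2 replicate 10, with 33326 CPM, was above 4 of the NAMs, while the group 2 tumor next in order had 11385 CPM. CYP17A1 was the most abundant cortex gene over all samples, at a mean of 11468 CPM in NAMs and 1529 CPM in PPGLs, and 0 of the 12 genes were without a count in all PPGLs. The part of cortical RNA in the separation of the lower members was not tested.

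The same tumor stood nearest to the NAMs for many lower members. PPGL group 2 replicate 10 had the highest tumor value for 26 of the 57 lower members, and 74 of the 200 lower near misses would have been members without it. The same held for 34 without NAM 3 and for 27 without NAM 4, so that the number of lower members was 131 without PPGL group 2 replicate 10 and 91 without NAM 3. Among the 135 higher near misses, 24 would have joined without NAM 4 and 18 without PPGL group 2 replicate 11, and the number of higher members was 56 without the former and 50 without the latter. The size of the set was thus decided by few samples. The cortex sums of NAM 3 and NAM 4 were 23681 and 18393 CPM, while NAM 5, with the lowest sum of the NAMs at 14669 CPM, kept out 7 lower near misses. Next to PPGL group 2 replicate 10 in cortex sum among the tumors were group 2 replicates 2 and 1 (11385 and 11066.5 CPM). They kept out 1 and 2 lower near misses. PPGL group 1 replicates 2 and 7, with cortex sums of 1031 and 156 CPM, kept out 16 and 13.

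**Figure D2:**
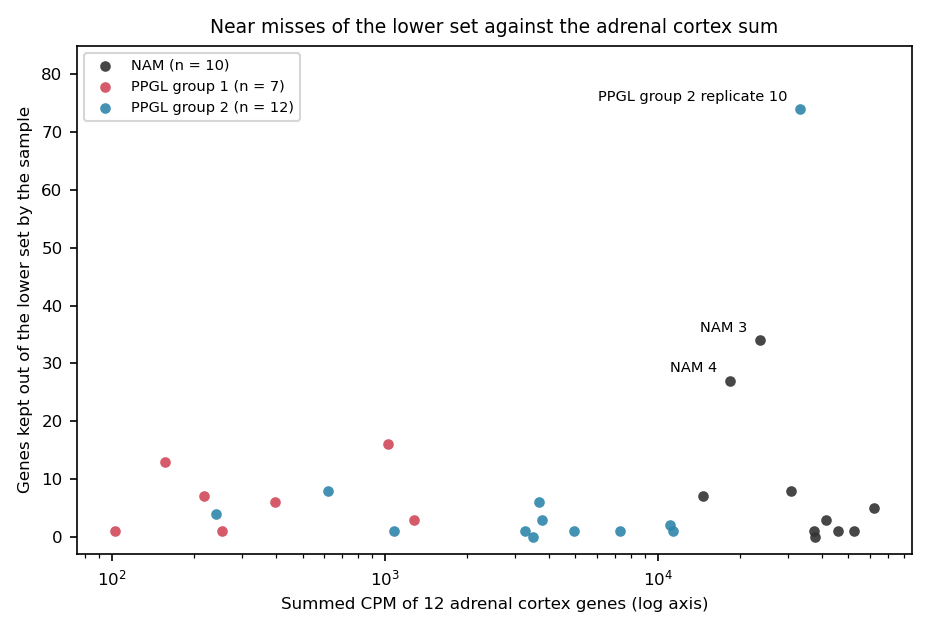
The number of genes that each sample kept out of the lower set, against the summed CPM of 12 adrenal cortex genes on a log axis, 1 point per sample. PPGL group 2 replicate 10 kept out 74 genes at 33326 CPM, NAM 3 kept out 34 and NAM 4 kept out 27.

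The near misses with the largest ratios show what a single sample did. MEGF11 was at most 0.325 CPM in NAMs and at 0.162, 10.5 and 83.8 CPM in the lowest, median and highest PPGL. ASIC2, an acid-sensing sodium channel, was at most 0.260 CPM in NAMs and at 0.242, 5.03 and 21.1 CPM in PPGLs. TMEM255A was at most 1.21 CPM in NAMs and at 0.420, 8.89 and 479.8 CPM in PPGLs. In each of these genes 1 tumor lay within the NAM range. MPO, the peroxidase of neutrophil granules, was barely counted, with at most 0.0404 CPM in NAMs and no count in 1 tumor, and went up to 5.62 CPM. On the lower side, ERBB4, a receptor of the epidermal growth factor family, was at 3.61 CPM or more in NAMs and at 0.219 CPM in the median tumor, with 7.25 CPM in 1 tumor of group 1. ENPP7, a sphingomyelinase, was at 60.2 CPM in its lowest NAM and at 77.3 CPM in its highest tumor. CREB3L3, a transcription factor of lipid metabolism, was at 1.04 CPM in its lowest NAM, with 3.44 CPM in 1 tumor of group 1. For these genes, too, the other 18 tumors were apart from all NAMs.

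Values close to the limit of the rule differed by very little on its 2 sides, in genes chosen after their values were seen. ZNF428 was inside with 44.0 CPM in its lowest tumor and 43.7 CPM in its highest NAM, and PSMD8 with 142 and 141 CPM. R3HDM4 was outside with 13.90 CPM in its lowest tumor and 13.94 CPM in its highest NAM, and TMEM145 with 46.5 and 46.7 CPM. On the lower side, SEMA3B was inside with 83.43 CPM in its lowest NAM and 83.40 CPM in its highest tumor, and SRPRA with 318 and 314 CPM. ADAM23 was outside with 10.541 CPM in its lowest NAM and 10.544 CPM in its highest tumor, and TMEM150C with 36.9 and 37.2 CPM. These genes were separated, or not, by less than the spread within either tissue. At the limit of 1 CPM, C31H21orf62 was inside with a NAM mean of 1.12 CPM, and the unnamed gene ENSCAFG00000048722, higher in PPGLs, was outside with a PPGL mean of 0.535 CPM.

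Position on the chromosomes was not used by the rule, and it was looked at closely after the counts per chromosome had been seen. Chromosome 5 held 15 of the 57 lower members (26.3%) and 743 of the 14271 genes (5.21%), and none of the higher members. Chromosome 9 held 6 of the 32 higher members (18.8%) and 868 of the genes (6.08%), and none of the lower members. The chromosome 5 members, named together here for their position after their values were seen, are SRPRA, RDX, BIRC2, ACADVL, SAT2, MAP2K4, FLII, FGGY, AGRN, SDF4, TPRG1L, LRRC47, SLC12A4, PARD6A and ATP6V0D1. They have unrelated roles: RDX links actin to the membrane, BIRC2 inhibits apoptosis, MAP2K4 is a kinase of the JNK pathway, AGRN is a heparan sulfate proteoglycan, SLC12A4 is a cotransporter of potassium and chloride and PARD6A is a cell polarity protein.

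The lower members on chromosome 5 had smaller ratios than the others. Their median log2 ratio was -1.32, against -3.07 for the 42 lower members on other chromosomes, and their median coefficient of variation over the PPGLs was 0.240 against 0.882. ATP6V0D1 (ENSCAFG00000020360, 81926612 to 81965526), a subunit of the proton pump of lysosomes and secretory granules, was at 393, 625 and 1648 CPM in the lowest, median and highest NAM and at 81.2, 122 and 386 CPM in PPGLs. SDF4 (ENSCAFG00000019323, 56407807 to 56421430), a calcium-binding protein of the Golgi, was at 239, 275 and 317 CPM in NAMs and at 63.6, 155 and 218 CPM in PPGLs. TPRG1L (ENSCAFG00000019482, 58157096 to 58159880) was at 88.1, 97.4 and 108 CPM in NAMs and at 39.5, 62.5 and 86.1 CPM in PPGLs. All 3 genes were present in every tumor at a considerable level, and the separation of ATP6V0D1 was lost under each of the other scalings. That of TPRG1L and of SRPRA was lost with the cortex and mitochondrial genes left out of the sums. On chromosome 9 the members were MFSD11, XYLT2, SUPT4H1, SEZ6, ITGAE and UBAC1, of which MFSD11, XYLT2 and ITGAE are named for their position only. Their median log2 ratio was 1.02, and SEZ6 was far above the other 5. Separation was lost for XYLT2 and SUPT4H1 with the cortex and mitochondrial genes left out of the sums. UBAC1 lost it with TMM or DESeq2 scaling. MFSD11 shares 22.1% of its exon bases with SRSF2 on the opposite strand, so its values may include reads of that gene.

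The other genes of these chromosomes were shifted as well. For each sample, the median log2 ratio to the mean NAM was taken over the genes of a chromosome that are not members, after 0.5 CPM had been added to each value and the median over all genes of the sample subtracted. Over 728 genes of chromosome 5 it lay between -0.04 and 0.07 in the NAMs and between -0.67 and 0.09 in the PPGLs, with a PPGL median of -0.51. In 18 of the 19 PPGLs it was below every NAM, and the exception was PPGL group 1 replicate 2 at 0.09. Without the subtraction the PPGL median was -0.52 and 16 of 19 were below every NAM, and among genes of at least 5 CPM in both tissues it was -0.56 with 18 of 19 below. All 9 windows of 10 Mb of chromosome 5 were shifted in the same direction, with PPGL medians between -0.54 and -0.42 and 17 or 18 of 19 PPGLs below every NAM in each. Over 862 genes of chromosome 9 the value lay between -0.05 and 0.05 in NAMs and between 0.03 and 0.48 in PPGLs, with a median of 0.17, and 18 of 19 PPGLs were above every NAM. PPGL group 1 replicate 2 was again the exception, at 0.03. Without the subtraction 11 of 19 PPGLs were above every NAM on chromosome 9, and its 10 Mb windows differed, from 7 of 19 above every NAM to 19 of 19 above between 30 and 40 Mb. The 15 lower members on chromosome 5 thus lay among other genes whose median was lower in all tumors but 1, and the 42 other lower members lay elsewhere.

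Chromosomes 5 and 9 were not alone in this. On chromosome 1, which held 4 higher and 2 lower members, 19 of 19 PPGLs were above every NAM with a median of 0.21, or 12 of 19 without the subtraction. Chromosomes 8, 12, 16 and 22 had PPGL medians of 0.17, 0.15, 0.15 and 0.16, close to that of chromosome 9. Since the median over all genes is subtracted, these values set the chromosomes of a sample against each other. On chromosomes 34 and 26, 15 of 19 PPGLs were below every NAM, with medians of -0.59 and -0.50, and chromosome 17 had 12 of 19 below with a median of -0.37. Chromosome 17 held 5 of the lower members and chromosome 26 held 3, while chromosome 34, with 146 genes, held none. DNA was not analysed here.

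**Figure D3:**
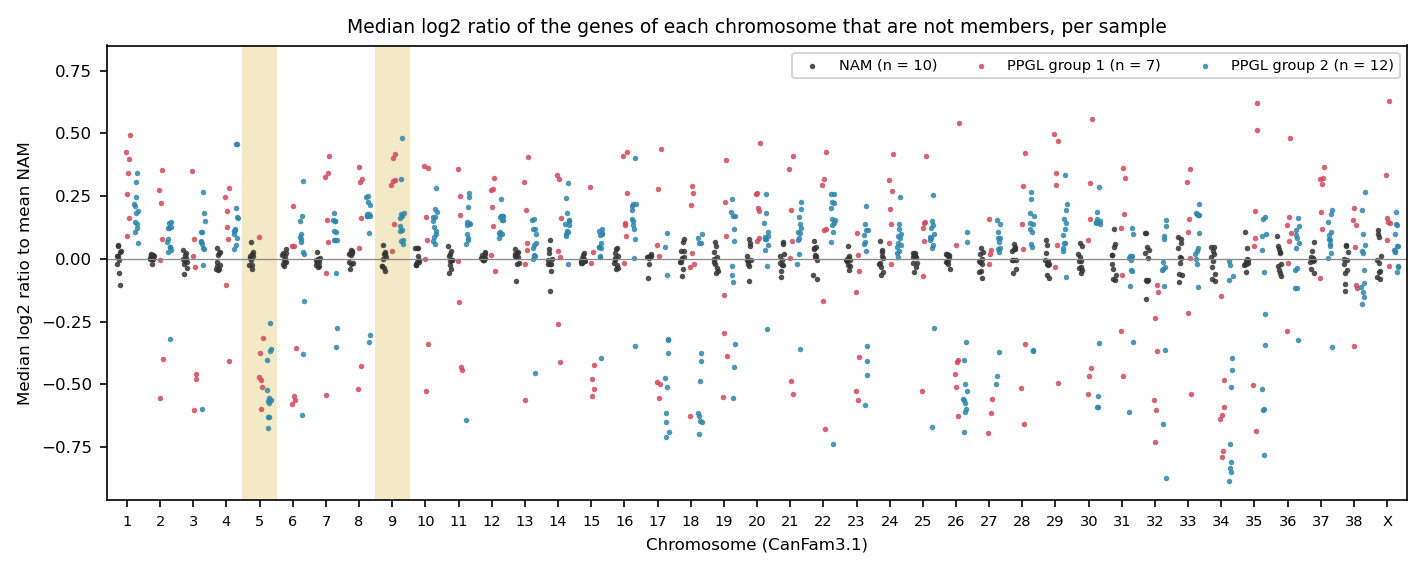
Median log2 ratio to the mean NAM of the genes of each chromosome that are not members, 1 point per sample, with chromosomes 5 and 9 shaded. On chromosome 5 the NAMs lay between -0.04 and 0.07 and 18 of 19 PPGLs below them, and on chromosome 9 the NAMs lay between -0.05 and 0.05 and 18 of 19 PPGLs above them.

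How the members varied among tumors was tested between PPGL group 1 and group 2, a contrast the rule did not use. Since the groups had been drawn from the expression profiles of these samples, the p-values describe the split and not an independent grouping. By edgeR's quasi-likelihood test, 1015 of 14666 genes tested (6.92%) passed an FDR-adjusted p (Benjamini-Hochberg) of 0.1, of which 582 (3.97%) were higher and 433 (2.95%) lower in group 1. Of the members 81 were tested and 9 passed: 2 higher members rose and 1 fell in group 1 relative to group 2, and 6 lower members fell. The other 8 members, all lower in PPGLs, had too few counts in tumors to be tested, namely MYPN, SLC24A2, ENSCAFG00000048329, C31H21orf62, FAM83F, C4BPA, EGFL6 and SLC22A6. Regardless of the test, the group 1 mean was below the group 2 mean in 46 of the 57 lower members (80.7%), in 16 of the 32 higher members (50%) and in 6113 of all 14271 genes (42.8%). By group medians, an alternative chosen after the data were seen, it was 46 of the 57 lower members, 13 of the 32 higher members and 48.0% of all genes. By means the lower members numbered 45 without PPGL group 2 replicate 10 and between 43 and 48 with any 1 tumor left out. Without PPGL group 1 replicate 7, 525 genes and 4 members passed, and without PPGL group 2 replicate 4, 674 genes and 7 members passed.

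The clearest difference between the groups was that of CP. It was at 0.152, 0.541 and 1.104 CPM in the lowest, median and highest tumor of group 1 and at 1.77, 6.59 and 9.40 CPM in group 2, so that the groups did not overlap. The log2 FC (group 1 over group 2) was -3.27 (SE 0.476, FDR-adjusted p = 0.00432, edgeR), and the gene passed in all 19 fits with 1 tumor left out. APOB was at 1.07, 1.86 and 6.00 CPM in group 1 and at 0.408, 12.2 and 28.0 CPM in group 2. APOB thus fell in group 1 by edgeR, at an FDR-adjusted p of 0.0403 and a log2 FC of -2.32 (SE 0.602), and 7 of 7 tumors of group 1 were below the group 2 median. ENSCAFG00000007029 was at 0, 0.108 and 0.303 CPM in group 1 and at 0.0453, 0.964 and 4.48 CPM in group 2, with a log2 FC of -3.83 (SE 0.961, FDR-adjusted p = 0.0356, edgeR) and 7 of 7 tumors of group 1 below the group 2 median. CP, APOB and ENSCAFG00000007029 were thus below every NAM in all tumors and had their lower median in group 1, although the lowest APOB value was in group 2. APOB and ENSCAFG00000007029 also passed in all 19 fits with 1 tumor left out. With the exact Mann-Whitney U-test in place of edgeR, 4 of the 9 members were called (CP, ENSCAFG00000007029, ENSCAFG00000047709 and GSTM3), and APOB, SDC2, TIAM2, SULF2 and NECAB3 were not. The cortex sums of group 1 were lower too, as given above, with 11 of the 12 cortex genes lower in group 1 by edgeR. By edgeR 38 of 48 mitosis genes and 23 of 35 DNA replication genes were higher there. Without PPGL group 1 replicate 7, 256 genes in place of 582 were higher in group 1. The part of the cortex, mitosis and DNA replication genes in the differences was not tested.

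Other called members were closer to the threshold. TIAM2 fell in group 1, with a log2 FC of -0.90 (SE 0.256, FDR-adjusted p = 0.0575, edgeR), and 7 of 7 tumors of group 1 were below the group 2 median. Its p was above 0.1 without PPGL group 1 replicate 4 or replicate 7, at most 0.124. SULF2 rose in group 1, with a log2 FC of 1.44 (SE 0.462, FDR-adjusted p = 0.0894, edgeR), and 5 of 7 tumors were above the group 2 median. NECAB3 rose in group 1, with a log2 FC of 1.11 (SE 0.365, FDR-adjusted p = 0.0968, edgeR), and 5 of 7 tumors were above the group 2 median. Both calls depended on single tumors, since SULF2 passed in 6 and NECAB3 in 5 of the 19 fits with 1 tumor left out, with FDR-adjusted p up to 0.201 and 0.235 in the others. For NECAB3, PPGL group 1 replicate 7 had the highest value of all tumors, at 165 CPM.

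SDC2, ENSCAFG00000047709 and GSTM3 also fell in group 1 and are named because they passed. SDC2, a syndecan that carries heparan sulfate on the cell surface, was at 3.00, 6.51 and 12.7 CPM in the lowest, median and highest tumor of group 1 and at 2.52, 21.5 and 74.6 CPM in group 2. By edgeR the FDR-adjusted p was 0.0475 and the log2 FC -1.88 (SE 0.511), with 7 of 7 tumors of group 1 below the group 2 median and a p of 0.104 without PPGL group 1 replicate 7. ENSCAFG00000047709 lies on the same strand at the end of SDC2 without shared exon bases, and by edgeR it had an FDR-adjusted p of 0.0596, a log2 FC of -1.90 (SE 0.547) and 7 of 7 tumors of group 1 below the group 2 median. The p of ENSCAFG00000047709 was above 0.1 without PPGL group 1 replicate 2 or replicate 7, at most 0.125. The pair had nearly the same log2 FC, and the reads of neighboring genes may not be fully separable. GSTM3, a glutathione transferase, was at 0.658, 2.85 and 13.3 CPM in group 1 and at 3.26, 11.8 and 45.7 CPM in group 2. For GSTM3 edgeR gave an FDR-adjusted p of 0.0657 with a log2 FC of -1.94 (SE 0.573), and 6 of 7 tumors of group 1 were below the group 2 median. It passed in 14 of 19 fits with 1 tumor left out, and missed the threshold without PPGL group 1 replicate 3, 4, 6 or 7 or PPGL group 2 replicate 10, at a p of at most 0.138. Because glutathione transferases form a family of similar genes, its level depends on how reads that fit several genes were handled.

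Most of the leading members did not pass this test. SEZ6 had a log2 FC of -0.15 (SE 0.391, FDR-adjusted p = 0.876, edgeR) and PHOX2A of -0.06 (SE 0.273, FDR-adjusted p = 0.927, edgeR). For CARTPT it was 0.44 (SE 1.15, FDR-adjusted p = 0.872, edgeR), for MCCC2 0.02 (SE 0.162, FDR-adjusted p = 0.959, edgeR) and for ACADVL -0.13 (SE 0.153, FDR-adjusted p = 0.681, edgeR). Missing the threshold does not show that the groups were alike, most of all for CARTPT with its wide SE. Among the 15 members on chromosome 5 the smallest FDR-adjusted p between the groups was 0.239, for PARD6A. KLHL14 and GJA1 came nearer, with log2 FCs of -2.70 (SE 0.947, FDR-adjusted p = 0.117, edgeR) and -1.43 (SE 0.497, FDR-adjusted p = 0.114, edgeR).

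Of the other gene lists, 5 held a member each, beside 89 members among all 14271 genes, and nothing is read from these counts. Among 28 endothelial and lymphatic genes ESM1 was the only member, higher in PPGLs, and the median log2 ratio was -0.31. Among 29 genes of cholesterol uptake, storage and synthesis APOB was the only member, the median was -0.38, and SCARB1, SOAT1, LIPA and NPC1 were among the lower near misses. Among 26 hypoxia-inducible genes PFKFB4, an enzyme that sets the level of the glycolytic regulator fructose 2,6-bisphosphate, was the only member and lower in PPGLs, against a list median of 0.25. GSTM3 was the only member among 23 glutathione and detoxification genes, whose median was -0.08, and FMO2 and MGST1 were among the lower near misses. SEMA3B, a secreted semaphorin, was the only member among 58 axon guidance genes, with a list median of 0.53. ESM1, PFKFB4 and SEMA3B thus went against the middle of their lists, although SEMA3B was not separated under any of the 3 other scalings, and ESM1, PFKFB4, GSTM3 and SEMA3B are named because they were the members found there.

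The lists of macrophages, lymphocytes, erythroid cells, Schwann cells, adipocytes, and liver and kidney held no member, from which nothing is read either. Median log2 ratios were 0.19 for 17 macrophage genes, 2.00 for 9 genes of T and NK lymphocytes, 0.99 for 5 of B lymphocytes and plasma cells and 2.68 for 4 erythroid genes. They were -0.75 for 10 genes of Schwann and sustentacular cells, -0.22 for 7 of adipocytes and -0.36 for 7 of liver and kidney. The T cell genes had a higher mean in PPGLs in 8 of 9 cases, but PPGLs and NAMs overlapped in each. The sum over all 15 genes found for that list had a median of 44.1 CPM in NAMs, 37.4 in group 1 and 33.8 in group 2, with 304 CPM in PPGL group 2 replicate 11 and 125 CPM in PPGL group 2 replicate 9. CD5, the gene with the lower mean in PPGLs, made up much of the NAM sum, at a mean of 28.3 CPM in NAMs and 5.29 CPM in PPGLs. No member came either from 44 receptor tyrosine kinases (median -0.10), 24 monoamine and acetylcholine receptors (1.16), 60 potassium channels (0.38), 47 genes of the Wnt pathway (0.07) or 16 glucocorticoid-responsive genes (-0.25). DRD2, HTR6 and CHRNA5 were higher near misses of the receptor list, and WNT3 was the near miss of the Wnt list.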

How the data were processed

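The count tables were used as deposited by the authors. Per the submitters' processing notes, reads were aligned to CanFam3.1 with STAR, and FastQC, Picard and HTSeq are listed among the tools, while the deposited table itself names featureCounts as its counter, so which tool made the counts is not certain. The library kit was stranded, but whether the counting used the strand, and how multi-gene reads were treated, are not given in the sources used here. CPM was computed from the sum of each sample. PPGL groups were compared with edgeR 4.0.16 (R 4.3.3, limma 3.58.1, TMM scaling, quasi-likelihood test, genes kept by filterByExpr with a minimum count of 10 and a minimum total of 15, Benjamini-Hochberg adjustment), and with DESeq2 1.42.0 as an alternative. Tables and figures used Python 3.11.15, pandas 2.3.3, numpy 2.4.6 and matplotlib 3.10.9. The members and lists were chosen with earlier results of these data known.

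Genes were named by rule: per direction the 12 members with a gene name and the largest gap, the 6 with the highest CPM per kb, the 3 with the smallest p between PPGL groups, 4 near misses, and up to 4 members of a list that held at least 3. The 28 lists covered chromaffin cells, adrenal cortex, cholesterol uptake, storage and synthesis, fibroblasts and extracellular matrix, endothelium and lymphatics, macrophages, T and NK lymphocytes, B lymphocytes and plasma cells, erythroid cells, Schwann and sustentacular cells, adipocytes, liver and kidney, mitosis, DNA replication and nucleotide synthesis, neuropeptides and peptide hormones, receptor tyrosine kinases, monoamine and acetylcholine receptors, sodium, calcium and acid-sensing channels, potassium channels, Wnt pathway, glucocorticoid-responsive genes, hypoxia-inducible genes, tricarboxylic acid cycle, fatty acid oxidation and branched-chain amino acid breakdown, respiratory chain, glutathione and detoxification, sympathoadrenal and neural transcription factors, and axon guidance. Promoter motifs were not analysed here. Some items are withheld and not reported here.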

Additional observations from a re-analysis of the deposited data

Results flagged for a closer look

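Within the NAMs and within PPGL group 1, the sample farthest from the rest was compared with the range of the others, in 92 groups of values. PPGL group 2 was not checked, since the limits used did not reach its number of tumors. Chance alone marks about 1 in 20 where values are normally distributed, which was not tested for these values. In 6 of the 92 groups a sample stood far away. ZNF428 was at 124 CPM in PPGL group 1 replicate 7, with the others of the group between 51.0 and 70.7 CPM. ACADVL was at 731 CPM in NAM 8, with the other NAMs between 389 and 540.3 CPM. C4BPA was at 0.768 CPM in PPGL group 1 replicate 7, with the others at most at 0.0541 CPM. CREB3L3 was at 3.44 CPM in PPGL group 1 replicate 2, with the others at most at 0.394 CPM. ERBB4 was at 7.25 CPM in PPGL group 1 replicate 6, with the others at most at 0.447 CPM. CREB3L3 and ERBB4 had been named as near misses, so a distant sample was part of how they were chosen. The chromosome 5 median log2 ratio was 0.0858 in PPGL group 1 replicate 2, with the others of group 1 between -0.60 and -0.32.

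Members that differed between the PPGL groups had log2 FCs (group 1 over group 2, edgeR) of -0.90 for TIAM2, 1.44 for SULF2, 1.11 for NECAB3, -3.27 for CP, -3.83 for ENSCAFG00000007029, -2.32 for APOB, -1.88 for SDC2, -1.90 for ENSCAFG00000047709 and -1.94 for GSTM3.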

How the results depend on the processing

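With TMM scaling 32 higher and 72 lower members were found (24 and 48 shared with the set), with DESeq2 size factors 30 and 81 (24 and 50 shared), and with the cortex and mitochondrial genes left out of the sums 26 and 60 (24 and 47 shared). In all 3 scalings 21 of the 32 and 45 of the 57 were kept. A minimum mean of 0.5 CPM gave 33 and 57 members, 5 CPM gave 32 and 53, and no minimum gave 33 and 60. With 1 sample left out, the higher members numbered between 32 and 56 (without NAM 4; 50 without PPGL group 2 replicate 11) and the lower ones between 57 and 131 (without PPGL group 2 replicate 10; 91 without NAM 3). Without chromosome 9 there were 26 higher members and without chromosome 5 there were 42 lower ones, alternatives chosen after the data were seen. Of 172 log2 ratios of named genes under other settings 167 lay within 1 SD (log2 CPM among PPGLs) of the value given, which is wide for genes that vary much, 5 lay farther off and 0 reversed. With group medians in place of means TMEM255A was at 3.96 and ENPP7 at -5.98, both within that SD. Outside it were ERBB4 at -5.79, MPO at 1.99, MYPN at -5.19, C31H21orf62 at -2.67 and FAM83F at -3.08. For these medians values under 3 counts were set to 3 counts, unlike for the means. The tumor medians of MYPN and C31H21orf62 were 0 CPM, the tumor mean of FAM83F was 0.107 CPM, and MPO was under 3 counts in every NAM. The median ratios of MYPN, C31H21orf62, FAM83F and MPO thus depend on that level and are no exact ratios. Their distance from the ratios of means is not read.

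Between the PPGL groups, an FDR-adjusted p below 0.05 left 470 genes and 4 members, and p below 0.1 with a log2 FC over 3 or under -3 left 225 and 2. DESeq2 size factors gave 1035 genes and 9 members, library size alone 1105 and 9, no low-count filter 1165 and 9 (7 shared, without SULF2 and NECAB3), the exact Mann-Whitney U-test 404 and 4, and the DESeq2 Wald test 1793 and 13. With 1 tumor left out, between 525 genes (without PPGL group 1 replicate 7; 674 without PPGL group 2 replicate 4) and 1218 genes passed, and between 4 and 10 members. With the sample number as a replicate block edgeR called 47 genes and 0 members, with 10 members at unadjusted p below 0.05; the numbers count different animals, and 0 of 7 same-number pairs had a correlation over 0.1 (-0.123 to 0.0428).

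The groups hold 7 and 12 tumors, healthy and tumor-bearing dogs are not matched, and cell composition was not measured. Overlapping genes can share reads. Of the 89 members, 8 share exon bases with a gene of at least 1 CPM on the opposite strand. TIAM2, MFSD11, CP, ACADVL, PARD6A and SRPRA are among them. Separation depends on the most extreme sample of each tissue, so the size of the set depends on single samples and on scaling.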
